A study of Mus musculus with 4 samples.

Results

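C1q-negative monocytes are here the droplet barcodes of mouse tumours that carried RNA of blood-type monocytes and almost none of the complement genes that mark resident and tumour macrophages. Members were chosen from their own counts of unique molecular identifiers (UMIs, each standing for 1 captured RNA molecule). A barcode needed at least 1000 UMIs, of which at most 20% were mitochondrial and under 0.3% came from the melanocytic genes Dct, Pmel, Mlana and Tyrp1. It needed at least 5 UMIs of the myeloid genes Lyz2, Tyrobp and Fcer1g together and at least 2 of the monocyte genes Ly6c2, Plac8, Ccr2, Vcan and Chil3. It could hold at most 1 UMI of C1qa, C1qb and C1qc together, at most 2 of Arg1, and none of Flt3, Siglech or Ncr1. This left 149 of the 10214 barcodes that met the depth and mitochondrial limits, and 149 of the 707 myeloid barcodes among them.

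The series compared 2 Control libraries with 2 libraries from Nanocapsule-treated tumours, all from C57Bl6 mice that the labels give as 6-8 weeks old. The title names enzyme nanocapsules in connection with T cell immunity and cancer immunotherapy, and the labels used here name neither the enzymes, the dose, the time nor the tumour line. The labels call the material cancer cells from tumour, whereas 2588 of the 10214 barcodes stayed under the melanocytic limit. The labels do not say whether a library came from 1 animal or from several, so the tests below measure the spread between libraries, which may be technical.

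Classical monocytes leave the bone marrow through the chemokine receptor CCR2, circulate with high surface Ly6C, and enter inflamed tissue and tumours. There many turn into macrophages, which take up dying cells and begin to express the C1q chains, or into cells that present antigen on MHC class II. They are also a source of chemokines, of interferon-induced proteins and of the checkpoint ligand PD-L1.

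There were 36 members in Control 1 and 49 in Control 2, and 22 and 42 in the first and second Nanocapsule library. Their UMIs summed to 173780, 400681, 213399 and 407865 in the same order of libraries, which is used throughout. The median member had 4441.5, 7184, 9710.5 and 9482 UMIs, so that members were shallowest in Control 1. No member barcode was a member in another library, and 1 of the 149 was a kept barcode in another library.

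The C1q limit fell in a gap of the counts. Of the members, 142 held 0 UMIs and 7 held 1 UMI of the C1q genes. No barcode that met the other limits held 2. The nearest barcodes above the limit held 3, 5, 3 and 7 C1q UMIs in the 4 libraries, and the medians of the 19, 22, 4 and 23 barcodes above it were 54, 48.5, 8 and 117. The lower limit for monocyte genes lay in a denser range: 5 members held exactly 2 monocyte UMIs, 16 barcodes that were otherwise like members held 1, and 47 held 0.

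The genes that chose the members are given as levels only, as UMIs of the gene scaled to a common total of all member UMIs (plain CPM). Plac8, a small cysteine-rich protein of myeloid and lymphoid cells, stood at 2497, 2204, 1959 and 1839 CPM. Ccr2, the receptor for the chemokine CCL2, stood at 558, 587, 403 and 755 CPM. Ly6c2, which encodes the Ly6C antigen, ran from 282 CPM in Control 1 and 309 CPM in Nanocapsule 1 to 1183 CPM in Control 2 and 897 CPM in Nanocapsule 2. Both groups therefore held 1 low and 1 high library. Vcan, a matrix proteoglycan, stood at 334, 177, 178 and 162 CPM, and Chil3, a chitinase-like protein, at 391, 147, 234 and 88.3 CPM. Lyz2, the lysozyme of myeloid cells, lay between 7140 and 7493 CPM. C1qa, C1qb and Arg1 summed to at most 3 UMIs each in any library, and C1qc was at 0.

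Not every member carried each gene. Ccr2 had a UMI in 121 of the 149 members, Plac8 in 119, Ly6c2 in 86, Vcan in 56 and Chil3 in 53. A single one of the 5 genes was present in 29 members, and all 5 were present in 25. With each barcode thinned to 1000 UMIs, the share of members with a Plac8 UMI was 63.9%, 61.2%, 72.7% and 57.1%. In tumour barcodes thinned the same way it was at most 0.147%. Ly6c2 is no monocyte gene alone: it was seen in 19.4%, 40.8%, 18.2% and 40.5% of thinned members and in 31.2%, 44.8%, 29.4% and 29.3% of thinned T cell barcodes. The T cell barcodes were chosen by UMIs of Cd3e, Cd3d, Cd3g and Trac and by almost none of Lyz2, Tyrobp and Fcer1g. Their Lyz2 level, 0 to 8.55 CPM, was therefore low by that choice.

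The label was checked on markers outside the rule. Summed over the monocyte marker list without the genes of the rule, members stood at 13534, 11198, 12085 and 11683 CPM. The C1q macrophages, barcodes with at least 2 C1q UMIs and at most 2 of Arg1, stood at 4219, 3386, 2348 and 4381 CPM. For the macrophage list the order was the opposite, with 2523 to 3159 CPM in members and 8489 to 18021 CPM in the macrophages. Members and macrophages were parted by the rule itself, so these levels are a description with no test.

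Among genes outside the rule with at least 100 CPM in the higher class in every library, Hp (haptoglobin, a haemoglobin-binding protein) had the largest ratio towards the monocytes, with 329, 183, 431 and 158 CPM, against 5.17, 1.00, 9.04 and 2.82 CPM in the macrophages (normalised CPM of the fit over both classes). Ifitm6 followed with 459, 249, 313 and 265 CPM against 4.52 to 20.7 CPM. Then came Gm9733, the protease Napsa, Ms4a4c, the integrin chain Itgal, the cytokine Il1b, the orphan nuclear receptor Nr4a1, the glutathione reductase Gsr and Sirpb1c. Nr4a1, which non-classical patrolling monocytes need, stood at 711, 439, 322 and 338 CPM in monocytes and at 9.04 to 88.5 CPM in macrophages. On the macrophage side, Gas6, a ligand of receptors that bind dying cells, was at 0 UMIs in the members of all 4 libraries and at 118 to 230 CPM in macrophages. The next genes were Pmp22, the chemokine Ccl8, the prostaglandin D synthase Hpgds, the growth factor Igf1, Serpinb6a, the chemokine Pf4, the elastase Mmp12, the scavenger receptor Stab1 and the cholesterol exporter Abca1.

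**Figure D1:**
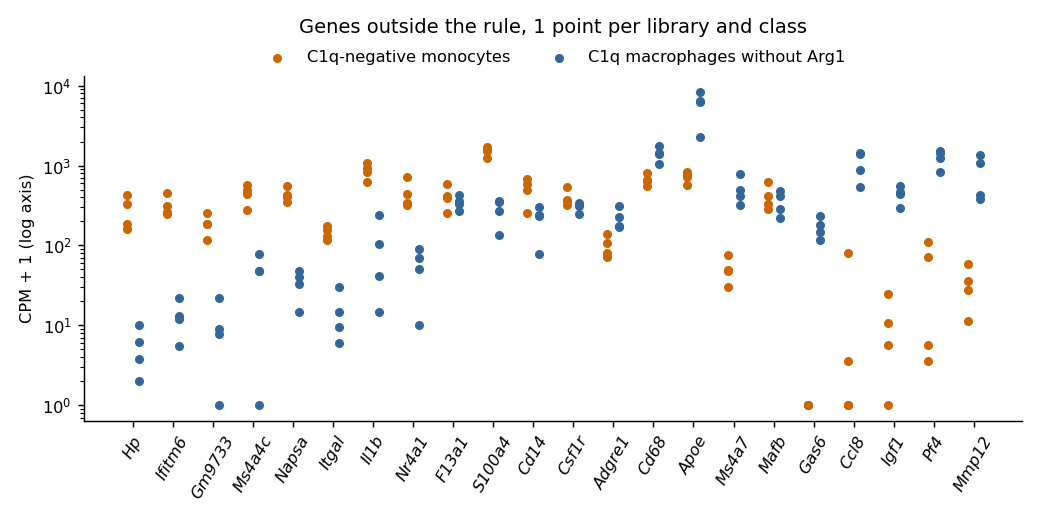
Level of 22 genes outside the rule in C1q-negative monocytes (orange) and in C1q macrophages without Arg1 (blue), 1 point per library, as CPM + 1 on a log axis. Hp, Ifitm6 and Napsa are high in the monocytes and Gas6, Igf1 and Mmp12 in the macrophages in each of the 4 libraries, and F13a1 and Csf1r overlap.

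Markers of other cells were present in part of the members. In 92 of the 149, or 17, 33, 13 and 29 by library, 2 or more UMIs came from lists of natural killer, T, B, neutrophil, dendritic, mast and basophil markers, without Ccl5, Bst2, Irf8, S100a8 and S100a9. These are the members meant below as holding other cell types, although monocytes also express some of these genes, such as Csf3r, and 57 members remain without them. A Lyz2 UMI was absent from 22 members: 4, 12, 0 and 6 by library. They were unlike between libraries. The 4 in Control 1 held the monocyte list at 12989 CPM and the natural killer list at 585 CPM, against 13622 and 33.4 CPM in the other members of that library. The 12 in Control 2 held these lists at 5673 and 1552 CPM, against 12879 and 355 CPM. The 6 in Nanocapsule 2 held them at 3699 and 13523 CPM, against 12551 and 185 CPM. In Nanocapsule 2 the 6 members without Lyz2 held Ccl5 at 9724 CPM and Cd3d, a chain of the T cell receptor complex, at 775 CPM. In Control 2 the 12 such members held all 124 UMIs of S100a9 found in members, in 2 of them, a gene of neutrophils and monocytes. In each Control library they held 6 UMIs of Gata2, a transcription factor of basophils and mast cells, and members with Lyz2 held none. The members without Lyz2 in Control 2 and Nanocapsule 2 go against the label by these lists. The 4 in Control 1 were near the others by the monocyte list but not by single markers. They held Cd14 at 41.8 CPM against 754 and Csf1r at 83.5 CPM against 394. Cd209a, a lectin of monocyte-derived dendritic cells, stood at 877 CPM against 140. Results that change without the 22 are given with that change. Summed over all members, the natural killer list stood at 109, 634, 202 and 1493 CPM, the T cell list at 51.8, 160, 253 and 306 CPM, and the mast cell and basophil list at 51.8, 27.5, 0 and 7.36 CPM. The dendritic cell list stood at 1099, 1482, 665 and 1037 CPM in members and at 595, 654, 608 and 698 CPM in C1q macrophages. It had 2 or more UMIs in 108 members, and it includes Bst2 and Irf8, which the count of 92 leaves out. Ly6g, Camp and Ngp of neutrophils, Ms4a1 and Pax5 of B cells, and Col1a1, Col1a2 and Dcn of fibroblasts had no UMI in any member. Other genes of these lists were present. The neutrophil list stood at 155, 686, 98.4 and 73.6 CPM, with 2 or more UMIs in 30 members. The B cell list stood at 46.0, 94.8, 60.9 and 71.1 CPM, with 2 or more UMIs in 19. The fibroblast and endothelial list stood at 74.8, 102, 23.4 and 9.81 CPM, with 2 or more UMIs in 9. No doublet caller was run, and a barcode that held 2 cells could be among the members.

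Among the myeloid barcodes, 20.1% were members in Control 1 (95% exact Clopper-Pearson interval 14.5 to 26.7) and 20.4% in Control 2 (15.5 to 26.1). For the treated tumours the share was 18.0% in the first library (11.7 to 26.02) and 25.3% in the second (18.9 to 32.6). The Nanocapsule libraries lay on either side of the Control libraries. The means were 20.3% ± 0.216 (SD, n = 2) and 21.7% ± 5.14 (SD, n = 2), with p = 1.0 in a two-sided exact permutation test. With 2 libraries against 2 this test cannot reach 0.05. Of all kept barcodes, members were 0.901%, 2.48%, 0.869% and 2.46%, again with 1 low and 1 high library in each group (exact permutation p = 0.667). The intervals cover counting error only.

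There were 0.456 and 0.613 members for each C1q macrophage in the Control libraries and 0.846 and 0.875 in the Nanocapsule libraries, which do not overlap. The C1q macrophages were 44.1%, 33.3%, 21.3% and 28.9% of myeloid barcodes, and barcodes with at least 3 Arg1 UMIs were 11.7%, 12.5%, 32.8% and 15.1%. More members and fewer macrophages cannot be told apart in such a ratio.

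**Figure D2:**
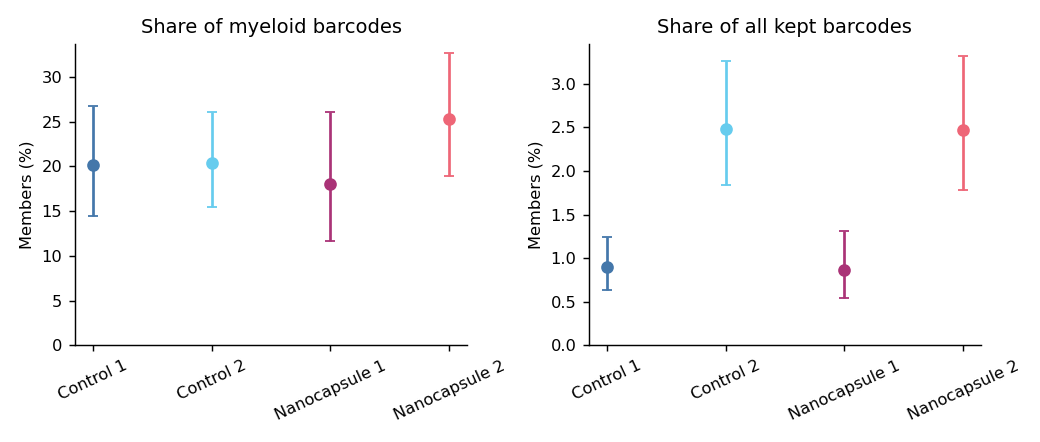
Share of C1q-negative monocytes among myeloid barcodes (left) and among all kept barcodes (right) in each library, in percent, with 95% exact Clopper-Pearson intervals as bars. On the left the 2 Nanocapsule libraries, 18.0% and 25.3%, lie on either side of the 2 Control libraries; on the right each group has a library near 0.9% and one near 2.47%.

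To ask which genes differed with treatment, the UMIs of the members were summed in each library and fitted with edgeR's quasi-likelihood test over 4730 genes outside the rule. No gene was higher and 4 were lower in the Nanocapsule libraries at a Benjamini-Hochberg adjusted p under 0.05, which is 0.0846% of those tested. At an unadjusted p under 0.05, 93 were higher and 92 lower (3.91% in all). The 4 genes were Ccl3, a chemokine for monocytes, T cells and natural killer cells, the proliferation genes Mki67 and Top2a, and Pf4, the platelet factor 4 chemokine. The number called moved with every library: it was 46 without Control 1, 10 without Control 2, 62 without Nanocapsule 1 and 17 without Nanocapsule 2, in fits where the lone library of a group was taken to vary like the other group. DESeq2 called 2, of which 1 was among the 4. None was called after thinning, without the 92 members that held other cell types or without the 22 members that lacked Lyz2, and none without the member that held the most UMIs of each called gene in each library.

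Ccl3 (chr11:83647844-83649355, minus strand, GRCm38) stood at 727 and 698 normalised CPM in the Control libraries and at 228 and 232 in the Nanocapsule libraries. The groups lay far apart and each was tight. The log2 fold of Nanocapsule over Control was -1.63 ± 0.25 (SE), with an adjusted p of 0.0438 in edgeR. Of the members, 14, 15, 9 and 15 held a Ccl3 UMI, and after thinning to 1000 UMIs 9, 8, 3 and 4 did. The single member with the most held 51 of 116, 92 of 264, 16 of 45 and 14 of 86 UMIs. Without that member in each library, Ccl3 stood at 379, 443, 143 and 183 plain CPM, and the groups still did not overlap. Members without Lyz2 held 51 of the 116 UMIs in Control 1, 74 of the 264 in Control 2 and none in the Nanocapsule libraries. Without them Ccl3 was at 434, 618, 211 and 234 plain CPM, with a log2 fold of -1.21 and an adjusted p of 0.709 in edgeR. The part of the other cell markers in this difference was not tested further.

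Mki67 (chr7:135689784-135716361, minus strand) marks dividing cells and had 12, 40, 0 and 1 UMIs in the members, or 75.2, 106, 0 and 2.70 normalised CPM. Its adjusted p was 0.0288 in edgeR. Over both libraries of a group the Control rate was 56.2 times the Nanocapsule rate, with a 95% counting interval of 9.66 to 2263 that leaves out the spread between libraries and between members. Top2a (chr11:98992943-99024189, minus strand), the topoisomerase of dividing cells, stood at 62.7, 87.3, 5.07 and 2.70 normalised CPM. Its ratio was 23.3 (6.06 to 198), with an adjusted p of 0.0438 in edgeR. Without Control 2 neither gene had enough counts to be tested. These values came from few members. In Control 1 a single member held all 12 Mki67 UMIs, and 3, 5, 1 and 2 members held any UMI of Mki67 or Top2a. In C1q macrophages 18 of 79, 32 of 80, 9 of 26 and 19 of 48 barcodes did. At least 3 UMIs of Mki67 and Top2a together were held by 1, 3, 0 and 0 members. For the cell cycle list, the highest member of Control 1 held 104 UMIs and the highest in Control 2 held 276, 125 and 75. Each of these also held Cd209a, at 7, 25, 1 and 8 UMIs. The highest in Nanocapsule 1 and 2 held 73 and 56 UMIs of the list, with 0 and 48 of Cd209a. Without members with a Cd209a UMI, 2 of the 4 calls remained.

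Pf4 (chr5:90772435-90773383, plus strand) is stored by platelets and also made by tumour macrophages. It stood at 75.2, 119, 5.07 and 2.70 normalised CPM, a ratio of 30.8 (8.15 to 261), with an adjusted p of 0.0288 in edgeR. Single members held 12 of 12 UMIs in Control 1 and 44 of 45 in Control 2. Without that member in each library, Pf4 stood at 0, 2.53, 0 and 0 plain CPM. The call for Pf4 thus rests on 1 member in each Control library. At least 5 UMIs of the endothelial genes Cdh5, Vwf, Pecam1 and Igfbp7 were present in 1 member of each Control library. No Nanocapsule member held as many. Whether these were the members that held Pf4 was not tested.

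**Figure D3:**
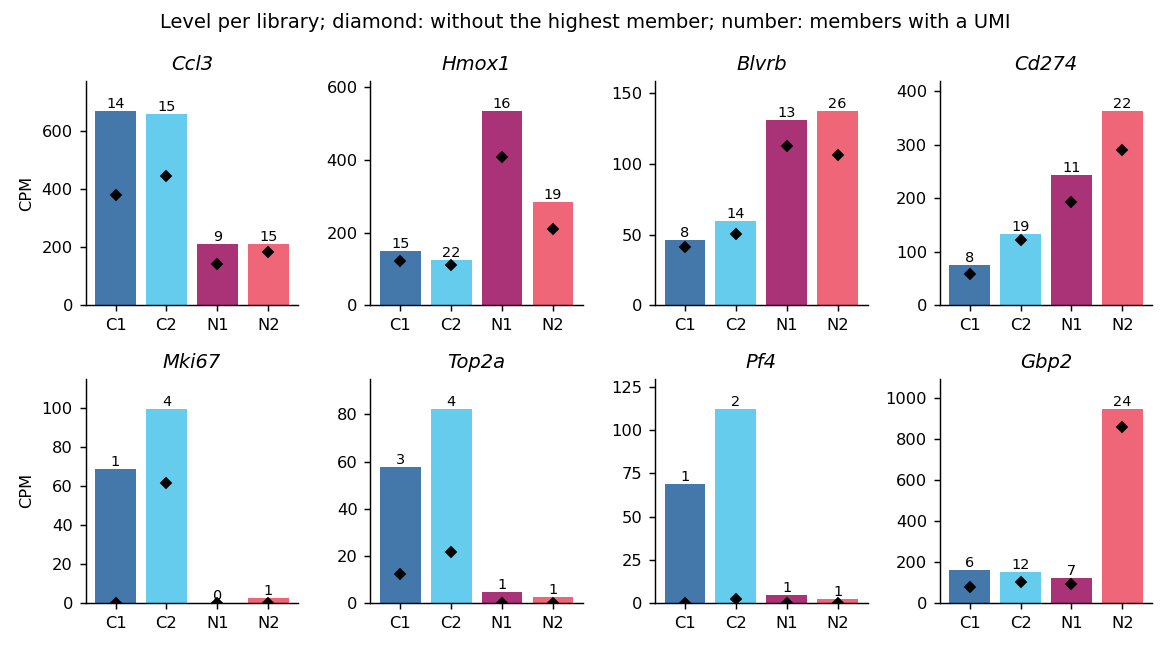
Plain CPM of 8 genes in the members of Control 1 and 2 (C1, C2) and Nanocapsule 1 and 2 (N1, N2). Bars give the level, diamonds the level without the member that held the most UMIs, and numbers the members with a UMI. Ccl3 stays apart between groups without that member, Pf4 drops to near 0, and Gbp2 is high in Nanocapsule 2 alone.

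Of 7 genes of the cell cycle list tested, Mki67 and Top2a included, 5 were lower, with a median log2 fold of -0.56. Summed over all 16 genes of the list, members stood at 1623, 2244, 1865 and 1447 plain CPM, and the groups overlapped. After thinning, 66.7%, 65.3%, 59.1% and 66.7% of members held a UMI of the list. The median over all 4730 genes was near 0 and 49.7% of them were higher. Stmn1, a microtubule regulator that dividing cells express, stood at 43.9, 68.8, 5.07 and 8.09 normalised CPM (adjusted p 0.447 in edgeR). Without Control 2 only 5 genes of the list could be tested and their median was 0.61, and without Nanocapsule 1 it was -1.93.

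Several genes had no overlap between the groups in the other direction and did not pass the adjustment. Over all genes tested, 719 (15.2%) had both Nanocapsule libraries above both Control libraries and 774 (16.4%) had them below. The genes described here lie in that background. Hspa1a, an inducible heat shock protein, had the next smallest p, at 94.0, 55.5, 233 and 262 normalised CPM with an adjusted p of 0.203 in edgeR. In Nanocapsule 2, 58 of its 97 UMIs came from 1 member, and 3 members held any.

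Genes of haem and iron handling were among these. Hmox1 (chr8:75093621-75100589, plus strand), the haem oxygenase that splits haem to biliverdin, stood at 163, 132, 578 and 313 normalised CPM. Its log2 fold was 1.59 ± 0.34 (SE), with an adjusted p of 0.267 in edgeR. A UMI was present in 15, 22, 16 and 19 members, and after thinning in 13.9%, 8.2%, 31.8% and 16.7% of them. Fits without 1 library left a lone library in a group, so their adjusted p is not given for Hmox1. Blvrb, which encodes biliverdin reductase B, stood at 50.1, 63.5, 142 and 151 normalised CPM (log2 fold 1.33, adjusted p 0.622 in edgeR). Fth1 and Ftl1, the ferritin chains that store iron, were the most abundant of the list. Fth1 stood at 10514, 9583, 21420 and 9297 normalised CPM, high in Nanocapsule 1 alone, and Ftl1 at 5138, 6119, 8002 and 6201. Of 7 genes tested, 5 were higher, none passed, and the median log2 fold was 0.33. C1q macrophages carried more Hmox1 than the monocytes in every library, with 1002, 423, 2486 and 1678 against 153, 122, 540 and 295 normalised CPM of the joint fit.

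Cd274 (chr19:29367455-29388095, plus strand) encodes PD-L1, the ligand that restrains T cells through PD-1. It stood at 81.5, 140, 264 and 399 normalised CPM, a log2 fold of 1.53 ± 0.34 (SE) with an adjusted p of 0.352 in edgeR. A UMI was present in 8, 19, 11 and 22 members, and after thinning in 5.56%, 12.2%, 22.7% and 23.8%, against at most 0.769% of thinned tumour barcodes. The adjusted p from fits without 1 library is likewise not given. Without the members that held 2 or more UMIs of other cell types the log2 fold of Cd274 was 0.37. Of 11 checkpoint and suppressive genes tested, 9 were higher and none passed. Lgals3, the lectin galectin-3, stood at 3158, 2369, 4630 and 2967 normalised CPM. The inhibitory receptor gene Lilrb4a stood at 570, 680, 705 and 1130.

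Interferons induce large gene sets in monocytes, in part shared between the kinds of interferon. Interferon gamma from T cells and natural killer cells drives GBP GTPases, Cxcl9 and MHC genes most strongly, whereas type I interferons drive the Ifit, Oas and Isg15 antiviral genes. Many of their promoters hold a repeat to which STAT and IRF factors bind. The 250 bases before the start of 4 of these genes are shown because the 2 lists lay on opposite sides of 0 in these members. Gbp2 and Cxcl10 are from the first list, and Ifit3 and Isg15 from the second. Cxcl10 itself had a log2 fold of -0.30 and was among the 2 lower genes of its list. Sequences are from RefSeq (GRCm38.p6), 5′ to 3′ on the strand of the gene, and capitals mark matches to a motif of GAAA, any 2 bases and GAAA again, on either strand, which may overlap. The regions are chr3:142620413-142620662 (plus) for Gbp2, chr5:92348890-92349139 (minus) for Cxcl10, chr19:34583279-34583528 (plus) for Ifit3 and chr4:156200819-156201068 (minus) for Isg15.
Gbp2: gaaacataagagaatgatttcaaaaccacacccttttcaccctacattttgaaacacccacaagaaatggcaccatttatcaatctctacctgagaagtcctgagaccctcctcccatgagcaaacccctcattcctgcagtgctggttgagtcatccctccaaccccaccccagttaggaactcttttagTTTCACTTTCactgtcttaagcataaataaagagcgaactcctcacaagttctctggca
Cxcl10: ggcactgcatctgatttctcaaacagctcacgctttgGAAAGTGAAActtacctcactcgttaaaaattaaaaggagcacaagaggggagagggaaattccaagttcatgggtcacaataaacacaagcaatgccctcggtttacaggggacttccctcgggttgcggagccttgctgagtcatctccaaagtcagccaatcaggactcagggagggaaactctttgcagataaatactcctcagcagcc
Ifit3: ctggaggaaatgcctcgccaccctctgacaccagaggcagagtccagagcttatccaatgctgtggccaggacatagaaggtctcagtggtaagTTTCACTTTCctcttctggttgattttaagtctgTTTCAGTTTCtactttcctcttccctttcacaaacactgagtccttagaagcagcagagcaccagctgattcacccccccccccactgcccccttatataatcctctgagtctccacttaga
Isg15: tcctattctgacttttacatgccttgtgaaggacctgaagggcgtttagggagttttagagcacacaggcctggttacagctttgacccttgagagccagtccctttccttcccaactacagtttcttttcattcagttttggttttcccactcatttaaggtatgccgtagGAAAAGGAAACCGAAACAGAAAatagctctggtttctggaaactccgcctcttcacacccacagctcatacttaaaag
The motif had 1 match in Gbp2, 1 in Cxcl10, 2 in Ifit3 and 3 overlapping ones in Isg15. Of 32851 promoter windows of this length in RefSeq, 978 (2.98%) held it. For the lists a gene was counted if any of its windows held the motif, so these counts are per gene, not per window. Of the 17 type I genes tested, 14 had a window and 8 of these held it. Of the 16 interferon gamma genes tested, 11 had a window and 8 of these held it. A match is a description of the letters, not a measured site, and the motif alone did not part the lists.

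Of the 16 interferon gamma genes tested, 14 were higher in the Nanocapsule libraries, with a median log2 fold of 0.28, and none passed the test. Most of this came from 1 library. Gbp2 stood at 175, 159, 132 and 1041 normalised CPM, and 6, 12, 7 and 24 members held it. Cxcl9, a chemokine for activated T cells, stood at 37.6, 74.0, 112 and 1146 normalised CPM, with 425 UMIs in 10 members of Nanocapsule 2 and 22 UMIs in 1 member of Nanocapsule 1. Cxcl10, its relative, was at 808, 627, 45.6 and 1076 normalised CPM, lowest in Nanocapsule 1. The median member gave 0.0413%, 0.0981%, 0.0735% and 0.287% of its UMIs to the list. Without Nanocapsule 2 the median log2 fold of the list was -0.45 and 3 of 16 genes were higher. Tumour barcodes held Gbp2 at 0.737, 1.43, 8.36 and 40.4 plain CPM, higher in both Nanocapsule libraries. Without members that held other cell types, 5 genes of the list could be tested and Gbp2 had a log2 fold of -0.014.

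The type I list had 16 of 17 tested genes lower, with a median log2 fold of -0.66, and none passed. Ifit3 stood at 56.4, 278, 5.07 and 10.8 normalised CPM (log2 fold -4.31 ± 0.93, adjusted p 0.622 in edgeR). It had 9, 105, 1 and 4 UMIs, held by 1, 11, 1 and 4 members. Isg15, a ubiquitin-like protein, stood at 363, 828, 279 and 396 normalised CPM, with Control 2 far above the others. Ifi27l2a, the most abundant of the list, was at 796, 1565, 1283 and 1211 (log2 fold 0.06). The groups did not overlap in 4 of the 17 genes, all of them lower. Over all 4730 genes tested, 774 (16.4%) were lower without overlap. Without Control 2 the median log2 fold was 0.12, and 9 of 16 genes were higher.

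Of 17 MHC class I genes tested, 15 were higher with a median log2 fold of 0.32, and none passed. B2m, the light chain shared by class I molecules, stood at 2688, 3107, 3682 and 3579 normalised CPM (log2 fold 0.32 ± 0.17, adjusted p 0.999 in edgeR). The heavy chain gene H2-D1 stood at 2061, 2319, 2312 and 3056. H2-Q7, a class Ib gene of a family of near-identical copies whose reads may be shared, stood at 18.8, 68.8, 86.2 and 210. Of 13 class II genes, 5 were higher and 8 lower. Cd74, the invariant chain that escorts class II molecules, stood at 10062, 12486, 8687 and 11970 normalised CPM. H2-Aa, a class II chain, stood at 3734, 4754, 3246 and 4272. Neither group was higher for these, and without the members that lacked Lyz2 the median of the class II list was 0.10 in place of -0.13. Without members that held other cell types the log2 folds were -0.030 for B2m, -0.043 for H2-D1, 0.85 for Cd74 and 0.66 for H2-Aa. Cd86, the co-stimulatory ligand, was at 244, 280, 380 and 534 normalised CPM (log2 fold 0.80, adjusted p 0.999).

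Within each library, class II RNA varied far more between members than between libraries. The share of UMIs from Cd74, H2-Aa, H2-Ab1 and H2-Eb1 ran from 0% to 6.65%, 7.70%, 6.19% and 7.52% of a member. The median was 0.437%, 0.0479%, 0.397% and 1.39%. At least 1% was reached by 15, 19, 8 and 22 members, 64 in all. Of the 149 members, 18 held Cd209a, a lectin of monocyte-derived dendritic cells, in 5, 10, 1 and 2 members.

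Members on either side of 1% differed in further genes, given with no test because the split was made on their RNA. Ciita, the master regulator of class II genes, was at 197 to 243 plain CPM above the limit and at 10.1 to 43.3 below it. Hp was at 14.8 to 70.7 plain CPM above and 253 to 606 below. F13a1, a clotting factor gene of classical monocytes, was at 83.9 to 279 above and 441 to 732 below. Plac8 was lower above the limit in every library, at 1941, 1309, 1313 and 1785 plain CPM against 2988, 3119, 2285 and 1906. Below the limit Ccl3 stood at 1148, 1035, 212 and 231 plain CPM, and the groups did not overlap. Above the limit it stood at 123, 291, 210 and 194, and the groups overlapped. Members without Lyz2 held 51 of the 116 Ccl3 UMIs of Control 1 and 74 of the 264 of Control 2. They held none in the Nanocapsule libraries. Ccl3 on either side of the limit without these members was not tested. Hmox1 was higher in the Nanocapsule libraries on both sides, at 73.7, 88.9, 796 and 239 plain CPM above the limit and 217, 161, 402 and 342 below.

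**Figure D4:**
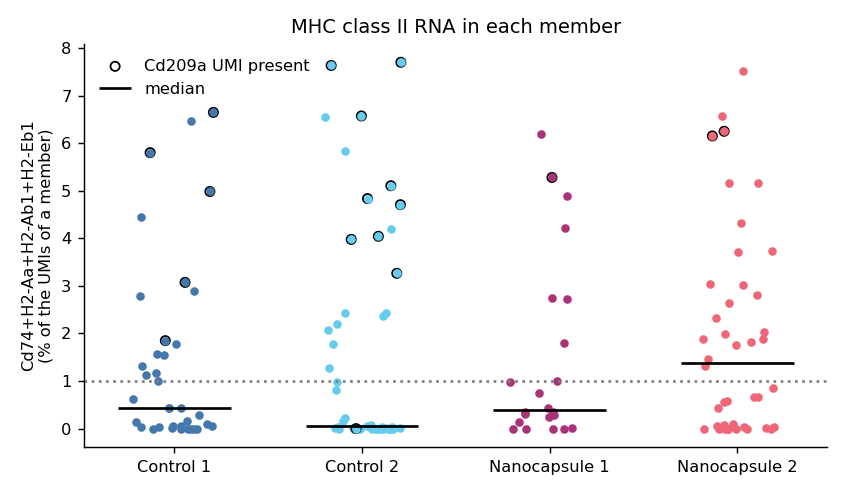
Share of the UMIs of each member from Cd74, H2-Aa, H2-Ab1 and H2-Eb1, in percent, by library. Each point is 1 member, circled where Cd209a was present, the line is the median and the dotted line marks 1%. Members range from 0% to over 6% in every library, and 10 of the 18 circled members are in Control 2.

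Chemokines and cytokines other than Ccl3 did not pass. Of 16 chemokine genes tested, 9 were lower and 7 higher. Ccl2, the ligand of CCR2, stood at 1560, 1708, 1866 and 2988 normalised CPM (log2 fold 0.57, adjusted p 0.999 in edgeR), and its log2 fold was -0.68 without members that held other cell types. Of 13 inflammatory genes, 8 were higher. Il1b stood at 1140, 899, 669 and 984 normalised CPM, and the groups overlapped. Nfkbia, an inhibitor that NF-kappa B itself induces, stood at 890, 569, 761 and 890. Il1rn, the natural antagonist of the IL-1 receptor, stood at 144, 119, 162 and 440 (log2 fold 1.25, adjusted p 0.999 in edgeR, or -0.51 without those members). In the alternative activation and repair list 7 of 14 genes were higher. Spp1, or osteopontin, swung from 296 in Control 2 to 1980 in Control 1, with 1765 and 968 in the Nanocapsule libraries. Tgfbi stood at 1040, 836, 908 and 1146 normalised CPM.

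Of 20 hypoxia and glycolysis genes tested, 16 were higher, with a median log2 fold of 0.40, and none passed. Pgk1, which makes ATP in glycolysis, stood at 420, 357, 771 and 585 normalised CPM (log2 fold 0.81, adjusted p 0.954 in edgeR). Ldha, the lactate dehydrogenase chain, stood at 965, 865, 1526 and 968, Pkm at 1328, 891, 1709 and 1403, and Aldoa at 1284, 809, 1785 and 1036. Nanocapsule 1 was the high library in each of these, and without it 9 of 20 genes were higher with a median of -0.01. All 6 NADPH oxidase genes were higher under TMM scaling and 5 of 6 under upper quartile scaling, with a median log2 fold of 0.13. Cyba stood at 1848, 1639, 2013 and 1907 normalised CPM and Cybb, the catalytic chain, at 539, 690, 502 and 736. The fold of Cybb was 0.01 and turned to -0.01 under upper quartile scaling. Of 14 antioxidant genes, 7 were higher. Gpx1, a glutathione peroxidase, stood at 3120, 2221, 2546 and 2050 normalised CPM, and Prdx5, a peroxiredoxin, at 1002, 1029, 1237 and 1381.

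Of 14 Fc and phagocytic receptor genes tested, 10 were higher, with a median log2 fold of 0.41, and none passed. The inhibitory Fc receptor gene Fcgr2b stood at 464, 468, 827 and 526 normalised CPM, and the integrin gene Itgb2 at 426, 436, 573 and 596. Of 13 lysosome and protease genes, 7 were higher. Psap stood at 3427, 3578, 4087 and 4027 normalised CPM, and Cst3, a protease inhibitor, at 3559, 3683, 2652 and 3048. Of 19 transcription factors, 14 were higher. Cebpb stood at 2368, 1801, 2814 and 2371 normalised CPM and Junb at 1660, 1785, 1506 and 1991. Nr4a1 was lower in both Nanocapsule libraries, at 758, 476, 345 and 359 (log2 fold -0.79, adjusted p 0.999 in edgeR).

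**Figure D5:**
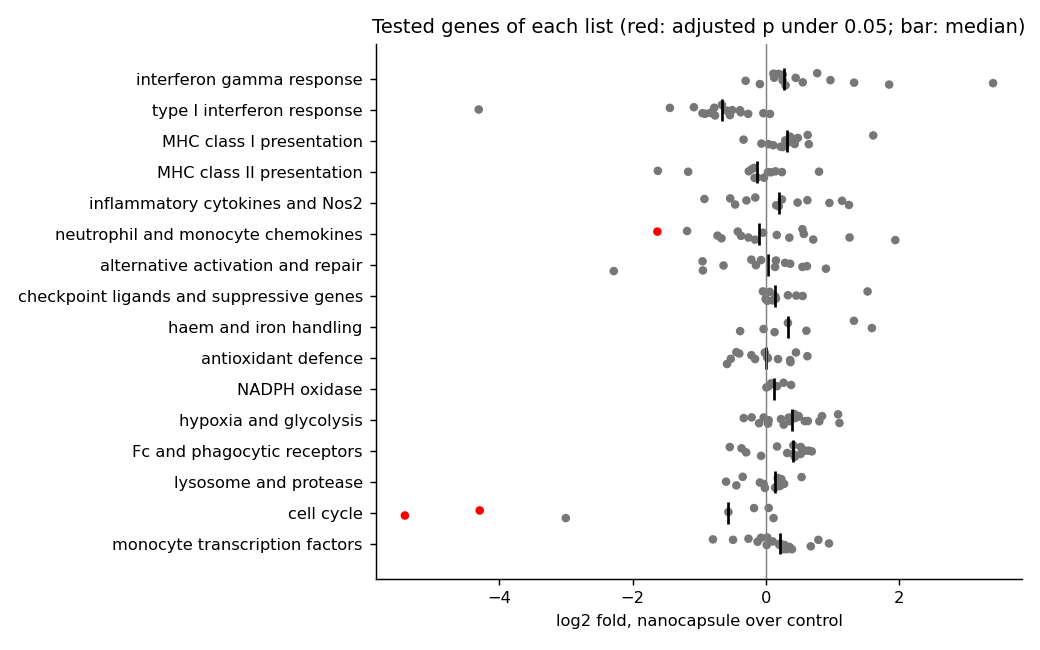
Log2 fold of Nanocapsule over Control in the members for each tested gene of 16 lists, 1 point per gene, with the median of a list as a bar and genes at an adjusted p under 0.05 in red. The 3 red points are Ccl3, Mki67 and Top2a; 16 of 17 type I interferon genes lie left of 0 and 14 of 16 interferon gamma genes right of it, with no gene of either in red.

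Whether treatment moved genes otherwise in these monocytes than in C1q macrophages was tested with an interaction term over 6417 genes, and 6 (0.0935%) were called at an adjusted p under 0.05 in edgeR. Mki67 and Pf4 were again among them. In macrophages Mki67 stood at 133, 160, 90.4 and 107 normalised CPM and Pf4 at 1443, 1508, 1234 and 825, against 70.6, 97.5, 0 and 2.55 for Mki67 and 70.6, 110, 4.74 and 2.55 for Pf4 in the monocytes on the same scale. Cd63, a tetraspanin of late endosomes, was higher in treated monocytes, at 76.4, 80.4, 379 and 150 normalised CPM, against 1240, 1151, 1325 and 807 in macrophages. For Ccl3 the difference was -1.58 on the log2 scale and was not called, with 426 and 358 normalised CPM in the Control macrophages. Leaving out Control 1 gave 39 calls, leaving out Control 2 or Nanocapsule 1 gave 2 each, and leaving out Nanocapsule 2 gave 9.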

How the data were processed

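The authors deposited, for each of the 4 libraries, an unfiltered matrix of raw UMI counts with its barcodes and genes. Per the labels' protocols the libraries were 10x Genomics 3′ v2. Cell Ranger 2.1.1 and mm10 are named in the submitters' processing notes and Cell Ranger 4 in the file headers; which of them made these counts is not settled. The members and gene lists were chosen with earlier results of these data known. Counts were summed per library over members and tested by edgeR 4.0.16 under R 4.3.3 (TMM scaling, filterByExpr, robust quasi-likelihood, Benjamini-Hochberg adjustment at 0.05); the genes of the rule were left out of the counts of calls. DESeq2 1.42.0 was an alternative. Plain CPM divides by all UMIs of the members, and normalised CPM by the TMM-scaled total. The fit was also run on simulated data, and that outcome is not used here. The UMIs of the members summed to between 173780 and 407865 in a library, which limits genes under about 20 CPM to a few UMIs.

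Genes were named by rule: with fewer than 5 calls, the 5 with the smallest p, up to 4 called members of each list or else the 2 most abundant, and Hmox1, Cat, Ldha, Cd274 and Nos2. Cat and Nos2 were too low to be tested. Blvrb, Cxcl9, Ifit3, Isg15, H2-Q7, Cd86, Stmn1, Nr4a1, Pgk1, Il1rn, Ccl2 and the genes given in single members were named after their values were seen. Coordinates are from GENCODE M21 (GRCm38). Alternatives changed the depth, C1q and monocyte limits, thinned barcodes to 1000 UMIs, left out members or libraries, and changed scaling, filter and test. Leaving out members by lymphocyte UMIs, Cd209a, Lyz2 or the most UMIs of a called gene was chosen after seeing the data.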

Additional observations from a re-analysis of the deposited data

Results flagged for a closer look

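For 6 genes the treatment difference itself differed between the C1q-negative monocytes and the C1q macrophages by the interaction term in edgeR. Values are the log2 fold in monocytes minus that in macrophages. Pf4 came to -4.10 (adjusted p 0.00249), and it rested on 1 monocyte in each Control library. Pclaf, a replication factor, came to -5.34 (adjusted p 0.00813), with 4, 46, 0 and 1 UMIs in the monocytes of Control 1, Control 2, Nanocapsule 1 and Nanocapsule 2, of which 1 member held 38 in Control 2. Il1r2, the decoy receptor for IL-1, came to -4.65 (adjusted p 0.00931). In monocytes it stood at 165, 141, 52.1 and 137 normalised CPM, whereas in macrophages it was at 3.45, 1.00, 4.52 and 61.2, with Nanocapsule 2 far above the other macrophages. Mki67 came to -4.96 (adjusted p 0.00931). Cd63 came to 1.80 (adjusted p 0.0180), with 13, 33, 80 and 59 UMIs in monocytes, of which single members held 34 in Nanocapsule 1 and 23 in Nanocapsule 2. The histone gene Hist1h2ae came to -3.14 (adjusted p 0.0406), with 62 of 78 UMIs of Control 2 in 1 member. Histone genes have near-identical copies, so its counts are uncertain.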

How the results depend on the processing

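With 2 libraries in each group, single libraries and few members moved most counts. The difference in share of myeloid barcodes (1.40 percentage points) ran from -2.23 to 5.04 when 1 library was left out and was -1.04 without members holding 2 or more UMIs of other cell types. The difference in share of kept barcodes (-0.022) ran from -0.82 to 0.775 with 1 library left out. It was 0.0011 at 2000 UMIs, 0.078 at 3 monocyte UMIs, 0.105 after thinning, 0.214 without Cd209a members and 0.155 without members lacking Lyz2. Against 4 calls, there were 2 at 3 monocyte UMIs and 2 without Cd209a members, all among the 4, 2 with DESeq2, of which 1 was among the 4, and 54 with no filter on low counts, which held all 4. There were 0 after thinning, without members holding other cell types, without members lacking Lyz2 and without the top members. With 1 library left out there were 10 to 62, which held 4, 1, 4 and 3 of the 4 without Control 1, Control 2, Nanocapsule 1 and Nanocapsule 2. The 6 interaction calls ran from 2 to 39 with 1 library left out, and were 30 with no filter and 1 when macrophages needed 5 C1q UMIs. The causes were not tested.

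Fits with the replicate number as a block called 0 genes. The 2 same-numbered pairs deviated together with a correlation of 0.17, and the labels do not say that numbers pair the libraries.

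Signs of log2 folds turned as follows. After thinning: Pf4 0.060, Ifi27l2a -0.15, B2m -0.076, Cd74 0.43, H2-Aa 0.28, Tgfbi -0.081, Fth1 -0.21, Cyba -0.017, Cybb -0.34, Aldoa -0.049, Cebpb -0.21 and Junb -0.24. Without members holding other cell types: Gbp2 -0.014, Ifi27l2a -0.19, B2m -0.030, H2-D1 -0.043, Cd74 0.85, H2-Aa 0.66, Spp1 -0.12, Prdx5 -0.18, Cyba -0.045, Cybb -0.46, Psap -0.22, Il1rn -0.51 and Ccl2 -0.68. Without lymphocyte UMIs: Cxcl10 0.11. Without Cd209a members: Ifi27l2a -0.11, Cd74 0.43, H2-Aa 0.40, Nfkbia -0.087, Tgfbi -0.034, Cybb -0.27, Psap -0.011, Cst3 0.0080 and Junb -0.16. Without members lacking Lyz2: Ifi27l2a -0.16, Cd74 0.14, H2-Aa 0.085 and Cybb -0.16. At 3 monocyte UMIs: Ifi27l2a -0.015, Cybb -0.061 and Junb -0.028. Cybb was -0.04 at 0 C1q UMIs, -0.039 without the top members and -0.013 under upper quartile scaling. Junb was -0.061 without the top members and -0.013 without members above 20000 UMIs, where Nfkbia was -0.037. With 1 library left out, folds ran from -3.95 to 0.62 for Cxcl10, -0.33 to 2.68 for Gbp2, -0.28 to 0.64 for Ifi27l2a, -0.38 to 0.11 for Cd74, -0.39 to 0.035 for H2-Aa, -0.11 to 0.58 for Nfkbia, -0.55 to 2.24 for Spp1, -0.040 to 0.35 for Tgfbi, -0.087 to 1.09 for Fth1, -0.45 to 0.092 for Gpx1, -0.30 to 0.28 for Cybb and -0.20 to 0.23 for Junb.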
